A study of Gallus gallus with 16 samples.

Results

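The comparison described here set chicken ovarian cancer cells treated with 1 or 2 mM metformin, called the higher doses, against the same cells at 0 or 0.5 mM, called the lower doses. Its members were chosen by the dose in the sample labels, 8 libraries against 8, which is 16 of the 16 libraries of the series, and the cell line of each library was kept as a block. The 4 COVCAR lines (C5, C7, C9, C11) were primary cultures, and every one came from the abdominal fluid, or ascites, of a single Leghorn hen past its peak of laying. All were labelled as ovarian endometrioid adenocarcinoma. C5, C7 and C9 were in passage 3 and C11 in passage 2. In all groups, the control at 0 mM included, the cells were kept for 24 h in serum-free medium with insulin and epidermal growth factor on plates to which cells do not attach. There was 1 library per line and dose, so each line gave 2 libraries to the lower and 2 to the higher doses. The 4 lines, not the 16 libraries, are the independent animals. In the main test the 2 libraries of a line in a pool counted as replicates (11 residual degrees of freedom). Its p-values and standard errors thus rest in part on libraries of the same hen.

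Metformin is a biguanide given against type 2 diabetes. It is known to slow complex I of the respiratory chain, which raises the ratio of AMP to ATP and activates AMPK, a kinase that restrains lipid synthesis and mTOR and favours the breakdown of nutrients. Tumour cells in ascites float singly or as spheres, away from the matrix they had been attached to. Pooling neighbouring doses asks which genes differed, on average over the lines, between little or no drug and the upper doses.

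Count totals lay between 34724071 and 42531887 per library and 14888 to 16903 genes were detected. Total, genes detected, TMM factor, share of counts in the 50 genes with most counts and length slope did not differ past the threshold between the pools (5 measures, exact permutation within lines, two-sided, adjusted p = 0.969 each). The length slope says how much log2 CPM (reads scaled to library size), less each gene's mean, changes per unit of log2 exonic length, over the 10627 genes whose counts averaged 100 or more. It was positive in 7 libraries, 4 at the lower and 3 at the higher doses, and negative in 9, and the first principal component (42.2% of the variance) put the same 7 libraries apart from the 9. The library of C7 at 1 mM also stood out, with the largest total and the highest level of 16 for several early-response genes described further on. It is also absent from the authors' deposited table that sets the 1 mM dose against the control, with no reason given in the sources used here. Values without it are given beside the results that it moved most, and for the gene lists together further on.

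The label was checked against markers of the cell types that ascites can hold. Of 7 epithelial markers in the table, KRT7, a keratin of simple epithelia, was at 206 to 869.9 CPM, median 471, at the lower and 245 to 778 CPM, median 465, at the higher doses, while EPCAM, the epithelial adhesion molecule, reached at most 0.650 CPM, CLDN3 at most 0.234 CPM and CDH1 at most 7.20 CPM in any library. CLDN1 reached 67.0 CPM and KRT18 29.4 CPM, with medians of 3.68 and 2.20 CPM at the lower and 6.38 and 2.89 CPM at the higher doses. Of the ovarian and Müllerian markers WFDC2 was at 1.53 to 5.37 CPM, median 3.20, and 0.639 to 7.54 CPM, median 3.29, WT1 at 0.957 to 5.75 CPM, median 2.47, and 1.47 to 22.1 CPM, median 2.62, and GATA4 at most 9.23 CPM. These were the most abundant at the lower doses of the 8 in the table, and OVALY was near 0 in every library. All 8 together summed to 5.39 to 17.1 CPM at the lower and 4.78 to 34.8 CPM at the higher doses. Only 5 of the 8 were tested, and 0 were called. The 9 fibroblast markers, collagen I among them, summed to 9682 to 66771 CPM at the lower and 8335 to 59289 CPM at the higher doses. PDGFRB, a growth factor receptor of mesenchymal cells, was lower at the higher doses (log2 fold change −1.25, edgeR adjusted p = 0.0384), and the other 8 markers of that list were not called. Smooth muscle markers, ACTA2 the most abundant, summed to 241 to 2401 CPM at the lower and 674 to 3889 CPM at the higher doses. Those of thrombocytes, ITGB3 the most abundant, summed to 415 to 2152 CPM and 561 to 2263 CPM. No member of these lists was called. Markers of red cells summed to at most 3.44 CPM in a library. Those of T cells, LCK the most abundant, summed to 115 to 233 CPM at the lower and 75.1 to 198 CPM at the higher doses. Those of B cells summed to at most 10.7 CPM, and no T or B cell marker was called. The mesothelial markers summed to 36.9 to 268 CPM and 46.3 to 103 CPM, and MSLN, mesothelin, was called higher (0.95, edgeR adjusted p = 0.0461). It was the 1 call among 6 mesothelial markers tested, and PDGFRB the 1 among 9 fibroblast markers. Over all genes tested, 2.49% were called higher and 1.52% lower. Of the epithelial markers KRT7 was thus clearly present, CLDN1, KRT18 and CDH1 were low, and EPCAM, CLDN3 and ESRP1 were near 0. The epithelial list summed to 230 to 897 CPM at the lower and 261 to 878 CPM at the higher doses, below the fibroblast sum of every library. The markers thus bore out an epithelial label only in part, with mesenchymal markers more abundant. In these bulk samples fewer cells of a type and less RNA per cell cannot be told apart.

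Of 13224 genes tested, 530 (4.01%) were differentially expressed genes (DEGs), that is genes with a p-value under 0.01 and a Benjamini-Hochberg adjusted p-value under 0.05 in edgeR's quasi-likelihood test. At the higher doses 329 DEGs were higher (2.49% of genes tested) and 201 were lower (1.52%). The higher DEGs had a median log2 fold change of 1.01, from 0.31 to 3.54, and 166 of them reached at least 1. The lower DEGs had a median of −0.92, from −4.08 to −0.36, and 88 fell by 1 or more on that scale, while the median over all genes tested was −0.022. Mean log2 CPM moved the same way in all 4 lines for 329 of 329 higher and 200 of 201 lower DEGs, the exception being the chloride channel gene ANO1 (log2 fold change −2.12, adjusted p = 0.0436). Among all genes tested, 19.4% were higher and 18.1% lower in all 4 lines. The DEGs were called on the same libraries with the line as a block. Their shared direction therefore follows largely from the call and is description only.

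**Figure D1:**
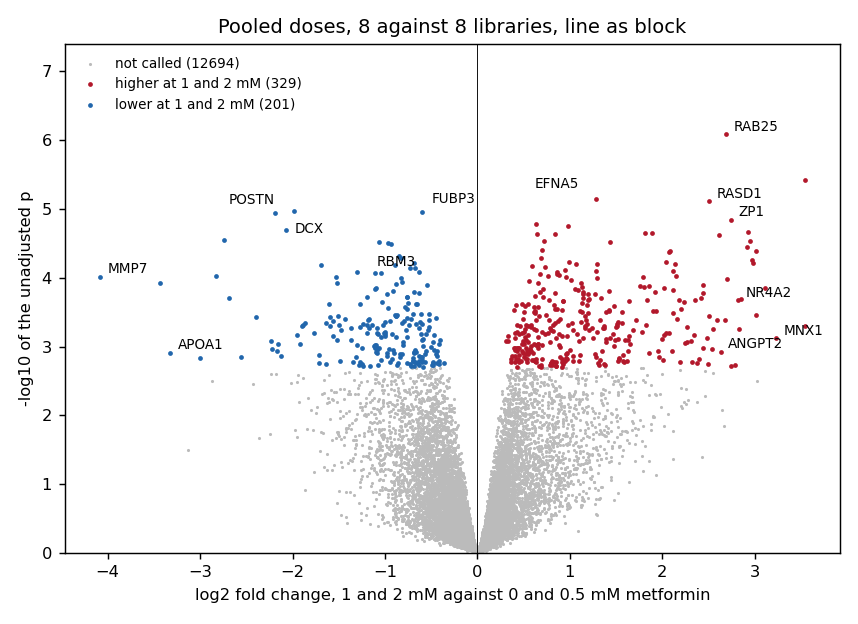
Log2 fold change of the higher against the lower doses (x axis) and −log10 of the unadjusted p from edgeR's quasi-likelihood test (y axis) for 13224 genes, 1 point per gene. The 329 DEGs higher at 1 and 2 mM reach 3.54 and the 201 lower DEGs reach −4.08 on the log2 scale.

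All adjusted p-values of the DEGs lay between 0.0109 and 0.05, and the number of DEGs moved strongly when libraries were left out. Leaving out the line C5 gave 101 DEGs, and leaving out C7, C9 or C11 gave 0, where 2652, 1786 and 1865 genes still had an unadjusted p-value under 0.05. Without C7, C9 or C11 the DEGs that were still tested (528, 527 and 528 of the 530) kept their direction and an unadjusted p-value under 0.05. Left out singly, the libraries that moved the count by over 1.5 times were at 0 mM C5 and C9 (35 and 12 DEGs), at 0.5 mM C9 and C11 (96 and 258), at 1 mM C7 and C11 (297 and 238) and at 2 mM C5, C9 and C11 (902, 27 and 1). These fits share most of their libraries with the fit of all 16 and are no independent support. The 1 gene left without C11 at 2 mM was RAB25. Without the line as a block 45 DEGs were called, and with the counts summed per line and pool, which treats each hen as 1 pair of values, 145 higher and 101 lower DEGs were called, of which 100 and 51 were among the 329 and 201.

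**Figure D2:**
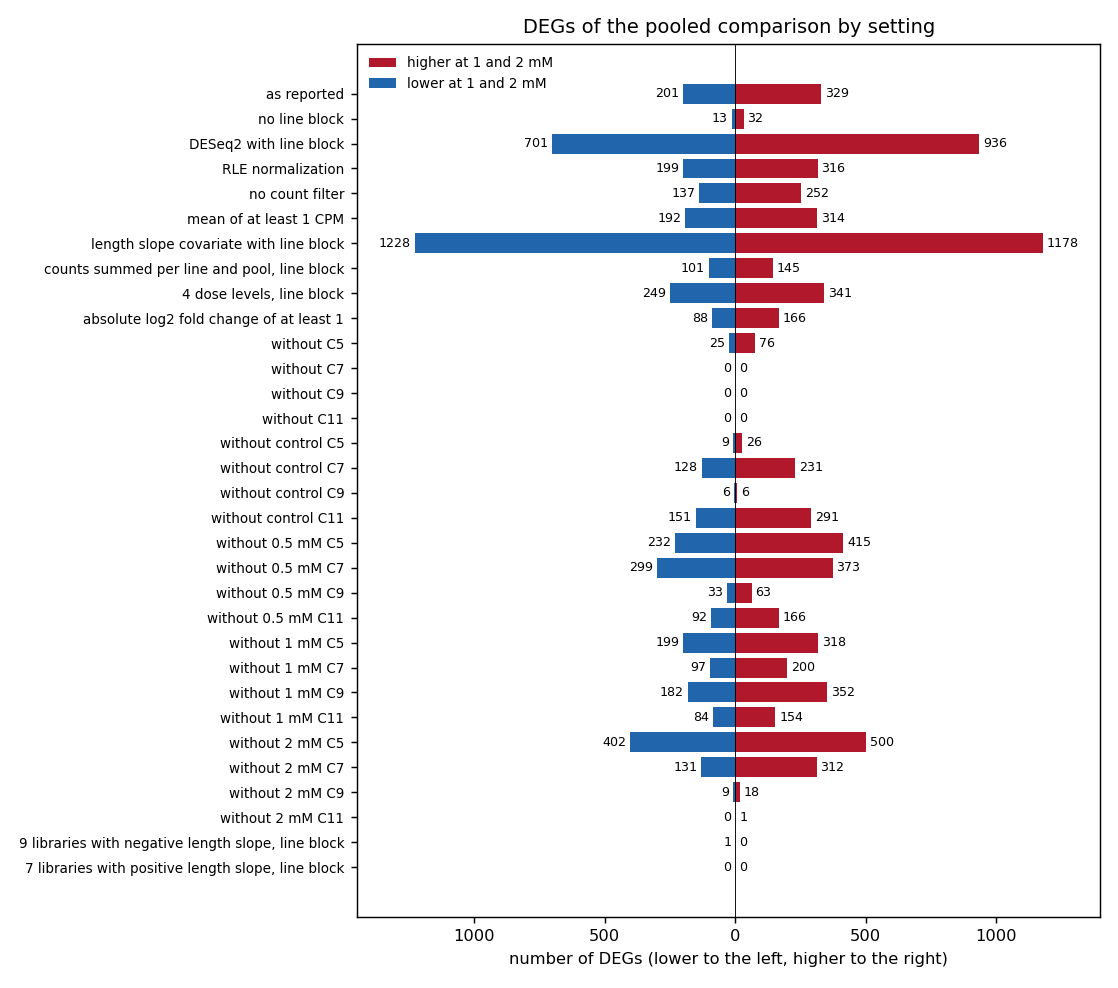
Number of DEGs of the pooled comparison under each setting, those lower at 1 and 2 mM to the left and those higher to the right of 0. The count is 329 higher and 201 lower as reported, 1178 and 1228 with the length slope as a covariate, and 0 in each direction without C7, C9 or C11.

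Among the higher DEGs with the smallest p-values were 3 genes of signalling at the membrane. RAB25, a small GTPase of recycling endosomes in epithelial cells (ENSGALG00000029812, GRCg6a chromosome 25, 1553973 to 1559757), was at 0.0553 to 0.565 CPM, median 0.216, at the lower and 0.319 to 3.81 CPM, median 1.28, at the higher doses (log2 fold change 2.69, standard error (SE) 0.323, edgeR adjusted p = 0.0109). The higher doses lay above the lower doses within each of the 4 lines, although the pools overlapped across lines. Of its 630 exonic bases 172 are shared with the gene without a symbol ENSGALG00000037802, also called higher, and a read over both was counted for both. RASD1, a Ras-related GTPase induced by glucocorticoids (ENSGALG00000004860, GRCg6a chromosome 14, 5183631 to 5185545), was at 2.92 to 11 CPM, median 4.62, and 5.83 to 165 CPM, median 25.8 (log2 fold change 2.51, SE 0.366, adjusted p = 0.0179), and without C7 at 1 mM, the library at the top of that range, its log2 fold change was 2.13. EFNA5, an ephrin ligand of Eph receptors (ENSGALG00000000280, GRCg6a chromosome Z, 48131380 to 48335018), was at 3.32 to 5.82 CPM, median 3.89, and 5.46 to 16.3 CPM, median 10.6 (log2 fold change 1.29, SE 0.186, adjusted p = 0.0179). The pools overlapped only through C7 at 0.5 mM, the one lower-dose library above 4.26 CPM. RAB25 and EFNA5 were also highest in C7 at 1 mM, and without it had log2 fold changes of 2.55 and 1.22.

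Several regulators of transcription were higher. HEY2, a repressor in the Notch pathway, was at 3.37 to 17.5 CPM, median 10.5, and 10.4 to 47.9 CPM, median 27.1 (log2 fold change 1.43, SE 0.238, adjusted p = 0.0179), and the higher doses lay above the lower doses within each line. MNX1, a homeobox factor of motor neurons, was at 0.0908 to 6.85 CPM, median 1.26, and 0.319 to 181 CPM, median 4.90 (log2 fold change 3.23, SE 0.755, adjusted p = 0.0327). Its top value was C7 at 1 mM, without which the log2 fold change was 2.38. TCF15, a basic helix-loop-helix factor of the somites (log2 fold change 2.98, SE 0.531, adjusted p = 0.0204, and 3.57 without C5), stayed at or below 0.366 CPM in the lower-dose libraries and reached 1.81 CPM. PRRX1, a homeobox factor of mesenchyme, rose less, with 95.4 to 185 CPM, median 127, and 149 to 227 CPM, median 178 (log2 fold change 0.49, SE 0.122, adjusted p = 0.0413), and was the 1 DEG among 11 tested factors and cadherins of epithelial to mesenchymal transition (list median 0.050). The markers VIM (log2 fold change −0.19) and FN1 (−0.33) of that list were not called. Over all genes tested 2.49% were called higher.

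Early-response genes, which cells switch on within minutes of a stimulus, held 4 higher DEGs among 23 tested, where 2.49% of all genes were called higher. Their median log2 fold change was 0.72 against −0.022 for all genes. The 4 were FOSB and the 3 orphan nuclear receptors NR4A1, NR4A2 and NR4A3. NR4A1 (ENSGALG00000043727, GRCg6a chromosome 33, 3308221 to 3313864) was at 1.65 to 16.6 CPM, median 5.04, and 9.56 to 118 CPM, median 24.4 (log2 fold change 2.34, SE 0.541, adjusted p = 0.0313). Its 2 higher-dose libraries lay above the 2 lower-dose libraries in each line. The same held in 3 lines for NR4A2, and in 2 lines each for NR4A3 and FOSB. NR4A2 was at 0.553 to 4.94 CPM, median 1.21, and 1.40 to 71.8 CPM, median 5.88 (log2 fold change 2.82, SE 0.57, adjusted p = 0.0237), NR4A3 at 0.415 to 19.1 CPM, median 3.93, and 2.74 to 127 CPM, median 22.6 (log2 fold change 2.40, SE 0.61, adjusted p = 0.0452). FOSB, a partner of JUN, was at 0.0830 to 7.07 CPM, median 1.89, and 0.287 to 49.6 CPM, median 9.86 (log2 fold change 2.37, SE 0.615, adjusted p = 0.0461). C7 at 1 mM gave the highest value for the 3 nuclear receptors, and without it their log2 fold changes were 1.97, 2.16 and 1.94. For FOSB, also highest there, the value was 1.95. JUN (log2 fold change 1.0, adjusted p = 0.0747), FOS (1.44, adjusted p = 0.111) and ZFP36L1 (0.69, adjusted p = 0.174) missed the threshold. Without C7 at 1 mM, where 1.5% of genes were called higher, 2 of the 23 were higher DEGs.

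**Figure D3:**
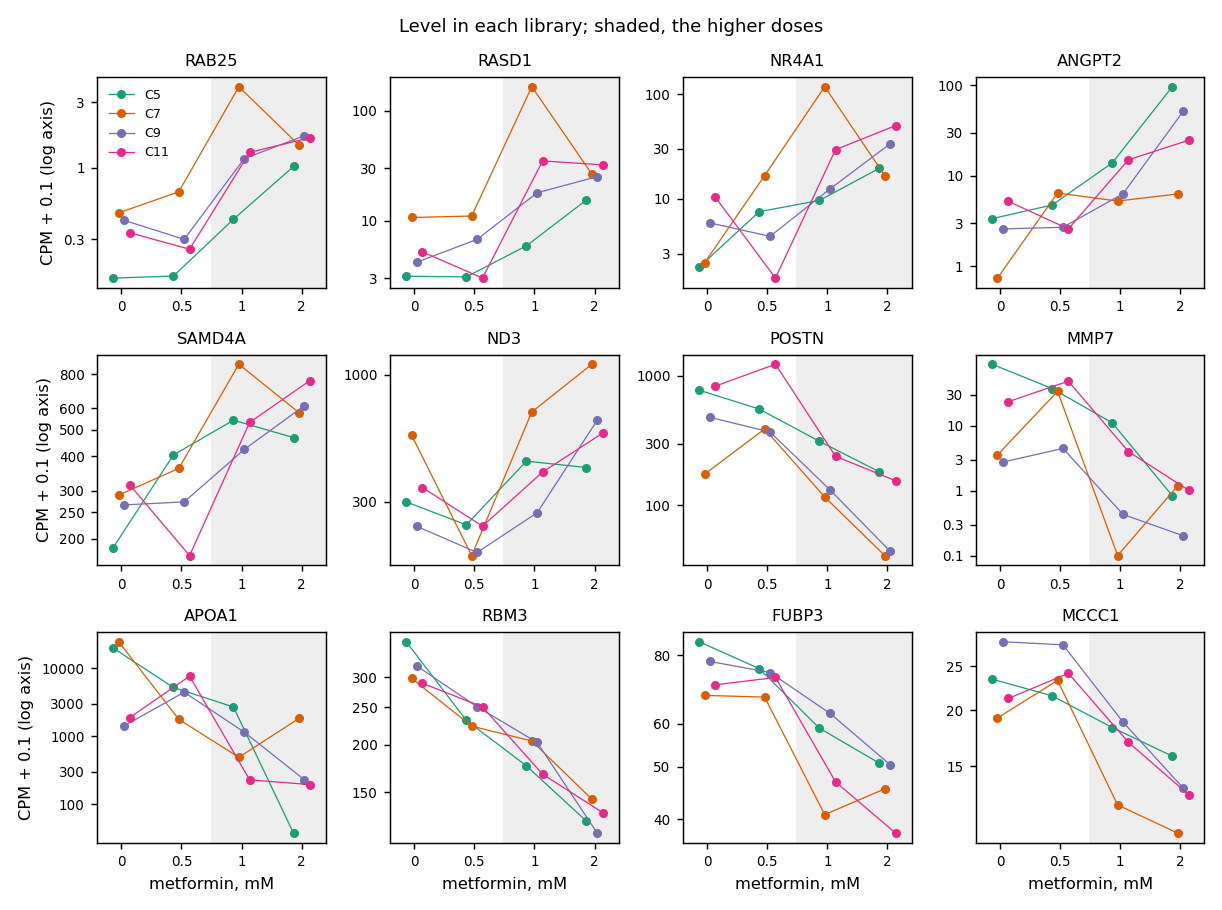
CPM + 0.1 on a log axis (y) against metformin dose in mM (x) for 12 DEGs, 1 point per library and 1 colour per line, with the higher doses shaded. The 4 points of C7 show the spike at 1 mM for RASD1 and NR4A1, and RBM3, FUBP3 and MCCC1 show no overlap between unshaded and shaded points.

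Among genes of vessels, FLT4, a receptor for VEGFC, APLNR, the apelin receptor, and ANGPT2, a ligand that loosens vessel walls through TIE2, were higher. They were 3 of 18 tested (list median 0.44), where 2.49% of all genes tested were called higher. ANGPT2 (ENSGALG00000036189, GRCg6a chromosome 3, 88592498 to 88638346) was at 0.641 to 6.36 CPM, median 2.93, and 5.17 to 96.7 CPM, median 14.4 (log2 fold change 2.63, SE 0.652, adjusted p = 0.0405, and 3.23 without C7). C5 at 2 mM was highest and C7 was the 1 line within which the pools overlapped. FLT4 was at 0.194 to 5.43 CPM, median 1.61, and 0.892 to 27.1 CPM, median 6.40 (log2 fold change 2.44, SE 0.467, adjusted p = 0.022), APLNR at 0 to 0.737 CPM, median 0.292, and 0.461 to 6.47 CPM, median 1.24 (log2 fold change 2.49, SE 0.581, adjusted p = 0.0327). Both receptors peaked in C7 at 1 mM, and without that library had log2 fold changes of 2.27 and 2.18. VEGFA was at 72.0 to 295 CPM, median 191, and 118 to 296 CPM, median 175, with a log2 fold change of 0.01 (SE 0.297, adjusted p = 0.987). Of 9 endothelial markers 5 were tested. VWF, a clotting protein of endothelium, was called higher (log2 fold change 1.63, adjusted p = 0.0334, at most 2.27 CPM), while CDH5, the endothelial cadherin, and TIE1 were at most 0.122 CPM in any library, and the median log2 fold change of the 5 tested was 0.90. CLDN5 (1.5, adjusted p = 0.0909), ERG (0.90, adjusted p = 0.166), PECAM1 (0.13, adjusted p = 0.833) and EGFL7 (−1.04, adjusted p = 0.18) were not called. The summed list was 15.1 to 76.6 CPM at the lower and 23.7 to 105 CPM at the higher doses. Their part in these 3 results was not tested.

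Interferon-stimulated genes gave 2 higher DEGs among 19 tested, IFIT5, a sensor of viral RNA (0.0908 to 3.71 CPM, median 0.427, and 0.701 to 19.6 CPM, median 4.03, log2 fold change 3.11, SE 0.602, adjusted p = 0.022), and IFI6 (0.305 to 2.87 CPM, median 0.714, and 1.21 to 12.5 CPM, median 3.19, log2 fold change 2.24, SE 0.455, adjusted p = 0.0239). The list median was 0.091, and 2.49% of all genes tested were called higher. TNFRSF18, a receptor of the TNF family, was the 1 DEG of 23 NF-kappa-B and cytokine genes. It was at 0.304 to 2.55 CPM, median 0.785, and 2.13 to 10.2 CPM, median 4.02 (log2 fold change 2.21, SE 0.461, adjusted p = 0.0262), and only C7 at 0.5 mM was above the lowest higher-dose value. Of this list 22 of 23 had a log2 fold change above 0 and the median was 0.60, against a median of −0.022 over all genes tested. The share of all genes above 0 was not counted, so the 22 cannot be judged against it. Higher in all 4 lines were 17 of the 23, where 19.4% of all genes tested were. CSF3, a growth factor of granulocytes, missed the threshold (2.27, adjusted p = 0.0794). C11 at 0 mM held 1832 CPM of CSF3 against at most 105 in the other lower-dose libraries, and without it the log2 fold change was 3.06. Macrophage markers summed to 58.8 to 213 CPM and 57.3 to 252 CPM, and the lectin receptor MRC1 missed the threshold (1.48, adjusted p = 0.0598).

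Several other higher DEGs named by size or by p-value were low at the lower doses. KCNIP2, which binds potassium channels, was at 0 to 0.467 CPM, median 0.193, and 0.542 to 5.65 CPM, median 1.16, and is 1 of the DEGs whose 16 libraries did not overlap (log2 fold change 3.01, SE 0.643, adjusted p = 0.0274). ZP1, a glycoprotein of the egg coat, was at 0.0303 to 0.372 CPM, median 0.157, and 0.191 to 2.80 CPM, median 1.02 (log2 fold change 2.74, SE 0.424, adjusted p = 0.0179). SLAMF8, an immune cell receptor (log2 fold change 2.92, SE 0.47, adjusted p = 0.0179), PENK, the precursor of enkephalins (log2 fold change 2.97, SE 0.523, adjusted p = 0.0204), and PTGDS, which makes prostaglandin D (log2 fold change 2.91, SE 0.491, adjusted p = 0.019), had their higher-dose libraries above the lower-dose ones within each line. So did PCDH8, a protocadherin, at 0.855 to 3.86 CPM, median 1.55, and 2.04 to 52.1 CPM, median 12.6 (log2 fold change 2.95, SE 0.487, adjusted p = 0.0179). SLC6A17, a neurotransmitter transporter, was at 0.0991 to 4.72 CPM, median 0.398, and 0.662 to 29.3 CPM, median 5.29 (log2 fold change 2.78, SE 0.73, adjusted p = 0.048), with 0.5 mM reaching 4.72 CPM in C7. C7 at 1 mM was the highest library for KCNIP2, ZP1, SLAMF8, PTGDS, PCDH8 and SLC6A17, whose log2 fold changes without it were 2.49, 2.51, 2.66, 2.70, 2.64 and 2.44. Smaller differences stood on higher counts for MTFR1L, a mitochondrial protein known in mammals as a target of AMPK (50.1 to 93.9 CPM, median 62.6, and 76.9 to 143 CPM, median 104, log2 fold change 0.64, SE 0.104, adjusted p = 0.0179), DNAJC1, a co-chaperone of the endoplasmic reticulum (log2 fold change 0.63, SE 0.0985, adjusted p = 0.0179), DHRS7, a short-chain dehydrogenase (log2 fold change 0.72, SE 0.119, adjusted p = 0.0179), EEPD1, a nuclease factor of DNA repair (log2 fold change 0.98, SE 0.155, adjusted p = 0.0179), and BEND7, a BEN domain gene (log2 fold change 0.84, SE 0.136, adjusted p = 0.0179).

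A few genes that cut or fill the matrix fell, and most of their lists were not called. MMP7, a metalloproteinase (ENSGALG00000017184, GRCg6a chromosome 1, 183873073 to 183877709), was at 2.66 to 88.8 CPM, median 28.7, and 0 to 11 CPM, median 0.828 (log2 fold change −4.08, SE 0.76, adjusted p = 0.0204). In each line both higher-dose libraries were below both lower-dose ones, and the pools overlapped across lines, C5 at 1 mM (11 CPM) lying above C9 at 0 mM (2.66 CPM). Without that library of C5 the log2 fold change was −4.67. MMP1, a collagenase also on chromosome 1, was at 5.58 to 1109 CPM, median 81.3, and 4.09 to 341 CPM, median 31.0 (log2 fold change −1.95, SE 0.449, adjusted p = 0.0311). These were 2 lower DEGs of 19 metalloproteinases and inhibitors, whose median was −0.61, where 1.52% of all genes tested were called lower. The gelatinase MMP2 (−0.22) and the inhibitor TIMP2 (0.22) were not called. POSTN, periostin, an adhesion protein of the matrix (ENSGALG00000017046, GRCg6a chromosome 1, 173372443 to 173406135), was at 174 to 1229 CPM, median 516, and 40.8 to 312 CPM, median 143 (log2 fold change −1.98, SE 0.299, adjusted p = 0.0179). All 4 lines were lower at 2 than at 1 mM, a step of −1.11 on the log2 scale that did not pass the test.

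Of 28 collagens, laminins and related matrix genes 2 fell (POSTN and COL6A1), 1 rose (COL14A1) and the median was −0.35. Over all genes tested 1.52% were called lower and 2.49% higher. COL6A1, a chain of microfibrillar collagen VI, was at 489 to 3308 CPM, median 1119, and 76.8 to 1716 CPM, median 378 (log2 fold change −1.35, SE 0.349, adjusted p = 0.0461). COL14A1, a collagen that sits on fibrils, was at 0.580 to 3.89 CPM, median 2.13, and 2.68 to 14.2 CPM, median 5.94 (log2 fold change 1.86, SE 0.461, adjusted p = 0.0413). COL1A1 (−0.22) and FN1 (−0.33) were not called. The 9 fibroblast markers had a median of −0.79, with PDGFRB called, and their part in these results was not tested. DCX, doublecortin, which binds microtubules (log2 fold change −2.07, SE 0.331, adjusted p = 0.0179), and TPPP3, which promotes tubulin polymerization (log2 fold change −2.74, SE 0.453, adjusted p = 0.0179), also fell. DCX was at 2.09 to 12.3 CPM, median 4.44, and 0.613 to 2.1 CPM, median 1.1, with 1 higher-dose library, C11 at 2 mM, level with the lowest lower-dose library. TPPP3, at 0.605 to 25.9 CPM, median 3.49, and 0.0575 to 2.76 CPM, median 1.16, was the 1 DEG within the 9 libraries of negative length slope (log2 fold change −3.34 there).

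APOA1, the main protein of high-density lipoprotein (ENSGALG00000007114, GRCg6a chromosome 24, 5140181 to 5141930), was at 1410.2 to 24355 CPM, median 4797, and 37.2 to 2675 CPM, median 357 (log2 fold change −3.32, SE 0.825, adjusted p = 0.0411). C5 and C7 at 0 mM had 19618 and 24355 CPM, and without C5 at 1 mM the log2 fold change was −3.88. The pools overlapped within C7, whose 2 mM library held 1812 CPM against 1759 at 0.5 mM. APOC3, an inhibitor of lipoprotein lipase also on chromosome 24, was at 0.191 to 8.88 CPM, median 1.04, and 0.0263 to 0.574 CPM, median 0.160 (log2 fold change −3.0, SE 0.761, adjusted p = 0.0444, and −2.48 without C5). They were 2 lower DEGs among 18 tested apolipoprotein and lipid-handling genes, with a median of −0.67, where 1.52% of all genes tested were called lower. The receptor LRP1 missed the threshold (−0.48, adjusted p = 0.0549). In edgeR's test fatty acid synthesis (0 of 12 called, median −0.42) and sterol synthesis and uptake (0 of 19, median −0.53) held no DEG. In them 4 and 3 genes had an unadjusted p under 0.05, where 22% of all genes tested did. DESeq2 called 2 and 1 of them lower, where it called 701 of 23910 genes lower. FASN was at 429.8 to 1053 CPM, median 861, and 231 to 1314 CPM, median 399, a log2 fold change of −0.57 (adjusted p = 0.398), and SCD had −0.85 (adjusted p = 0.289). In the fit of 4 doses their steps from 1 to 2 mM were 1.11 and 1.21 and did not pass.

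Breakdown of branched-chain amino acids and propionate held 3 lower DEGs among 20 tested and a median of −0.33, where 1.52% of all genes were called lower. Of the 20, 14 were lower in all 4 lines against 18.1% of all genes tested. MCCC1, a subunit of the carboxylase of leucine breakdown (ENSGALG00000008785, GRCg6a chromosome 9, 16547508 to 16563542), was at 19.1 to 28.2 CPM, median 23.2, and 10.6 to 18.7 CPM, median 14.5, without overlap (log2 fold change −0.68, SE 0.122, adjusted p = 0.0204). MCEE, the epimerase of methylmalonyl-CoA, was at 3.32 to 6.50 CPM, median 4.68, and 1.16 to 3.47 CPM, median 2.05 (log2 fold change −1.1, SE 0.268, adjusted p = 0.0384). ALDH6A1, the semialdehyde dehydrogenase of valine breakdown, was at 7.14 to 15.9 CPM, median 13.1, and 4.97 to 11.3 CPM, median 6.12 (log2 fold change −0.80, SE 0.19, adjusted p = 0.0348). Glycolysis had 1 lower DEG of 22, PFKM, the muscle form of phosphofructokinase (log2 fold change −0.76, SE 0.198, adjusted p = 0.0461), while GAPDH (−0.32) and ENO1 (−0.26) were not called. RPIA, which makes ribose 5-phosphate in the pentose phosphate pathway, was at 39.8 to 136 CPM, median 58.8, and 24.5 to 96.4 CPM, median 31.1 (log2 fold change −0.83, SE 0.145, adjusted p = 0.0204). Its highest higher-dose library was C5 at 1 mM. The cycle of tricarboxylic acids held 0 DEGs of 13 in edgeR's test (median −0.14, 2 at an unadjusted p under 0.05, 0 called by DESeq2). Of all genes tested 22% had an unadjusted p under 0.05.

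Of 46 nuclear genes of oxidative phosphorylation edgeR called 0 and DESeq2 0, and the median was −0.031. In edgeR's test 1 of them had an unadjusted p under 0.05, where 22% of all genes tested did. Of the 13 protein genes of the mitochondrial genome 3 were higher DEGs, the median was 0.46 and 10 of 13 were higher in all 4 lines. Over all genes tested 2.49% were higher DEGs and 19.4% were higher in all 4 lines. ND3, a subunit of complex I (ENSGALG00000030436, GRCg6a chromosome MT, 10776 to 11126), was at 179 to 563 CPM, median 239, and 269.7 to 1105 CPM, median 507 (log2 fold change 0.95, SE 0.242, adjusted p = 0.0444). ND4L, another complex I subunit, was at 217 to 392 CPM, median 328, and 368 to 517 CPM, median 427 (log2 fold change 0.52, SE 0.117, adjusted p = 0.0293) and ATP8, a subunit of ATP synthase, at 402 to 882 CPM, median 588, and 618 to 1538 CPM, median 914 (log2 fold change 0.69, SE 0.181, adjusted p = 0.048). ATP8 shares 10 of its exonic bases with ATP6 and ND4L shares 7 with ND4. MT-CO1 had a log2 fold change of 0.02 and COX3 one of 0.38, neither called. Their exonic lengths were 1548 and 784 bases, against 351, 297 and 165 for ND3, ND4L and ATP8. With the length slope in the fit the list median was 0.40 and 8 of the 13 were called higher, where 8.91% of genes were. The part of length in these differences was not tested further. Including 2 genes without a symbol, 5 of 31 tested genes on the mitochondrial chromosome were DEGs, all higher (16.1%). Without C7 at 1 mM 1 of the 13 was called.

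AMPK and mTOR genes held 3 DEGs, where 2.49% of all genes tested were called higher and 1.52% lower. Of 14 tested AMPK subunits, kinases and partners only CAMKK1, an upstream kinase, was a DEG (0.520 to 3.91 CPM, median 2.13, and 0.368 to 1.61 CPM, median 0.910, log2 fold change −1.05, SE 0.268, adjusted p = 0.0459). Of 30 mTOR and autophagy genes RHEB, the GTPase that switches on mTORC1, rose (28.8 to 41.2 CPM, median 36.2, and 36.3 to 63.6 CPM, median 51.1, log2 fold change 0.51, SE 0.116, adjusted p = 0.031) and ATG7, an enzyme of autophagosome formation, fell (8.93 to 16.2 CPM, median 12.4, and 4.74 to 10.3 CPM, median 7.07, log2 fold change −0.76, SE 0.158, adjusted p = 0.0261). LAMP1 (0.38, adjusted p = 0.0554) missed the threshold. PRKAR1B, a regulatory subunit of protein kinase A, was the 1 DEG of 24 cAMP genes (17.3 to 38 CPM, median 25.6, and 7.10 to 24.1 CPM, median 11.5, log2 fold change −1.08, SE 0.244, adjusted p = 0.0292). RBM3, an RNA-binding protein induced by cold (ENSGALG00000030918, GRCg6a chromosome 28, 3176587 to 3182020), was at 223 to 371 CPM, median 269.9, and 117 to 204 CPM, median 156, without overlap (log2 fold change −0.81, SE 0.155, adjusted p = 0.0214). In the glutathione and antioxidant list 2 of 30 fell, GSTA4 (0.364 to 10.9 CPM, median 0.894, and 0.0236 to 2.42 CPM, median 0.132, log2 fold change −2.83, SE 0.525, adjusted p = 0.0204) and GSTK1 (log2 fold change −0.68, SE 0.18, adjusted p = 0.049), both glutathione transferases.

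Protein folding and cell division each held a few higher DEGs, where 2.49% of all genes tested were called higher. HSPA8, the constitutive HSP70 (1206 to 2494 CPM, median 2133, and 1384 to 4325 CPM, median 3100.1, log2 fold change 0.65, SE 0.159, adjusted p = 0.0384), HSPD1, the mitochondrial HSP60 (205 to 288 CPM, median 243, and 265 to 407 CPM, median 315, log2 fold change 0.39, SE 0.0952, adjusted p = 0.0385), and HSPA2 (log2 fold change 1.28, SE 0.324, adjusted p = 0.044) were 3 of 24 heat shock genes, with a median of 0.19. HSPA2 reached 7610 CPM in C7 at 1 mM against at most 1719 in the other higher-dose libraries, and without that library its log2 fold change was 0.93. HSPA8 and HSPA2 belong to 1 gene family, and whether reads were shared between them was not tested. Among 37 genes of S phase CDC6, which loads the replicative helicase (1.20 to 2.88 CPM, median 2.11, and 1.49 to 10.1 CPM, median 4.26, log2 fold change 1.16, SE 0.259, adjusted p = 0.0289), and CCNE2, a cyclin of S phase entry (0.509 to 2.26 CPM, median 0.975, and 1.47 to 4.84 CPM, median 2.33, log2 fold change 1.21, SE 0.274, adjusted p = 0.0297), rose. Among 38 genes of mitosis CDC25A, a phosphatase that activates cyclin-dependent kinases (log2 fold change 0.54, SE 0.121, adjusted p = 0.0289), and BIRC5, survivin (log2 fold change 0.80, SE 0.206, adjusted p = 0.0461), rose. The list medians were 0.22 and 0.32, and TK1 (0.72, adjusted p = 0.0644) and PCNA (0.26) were not called.

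**Figure D4:**
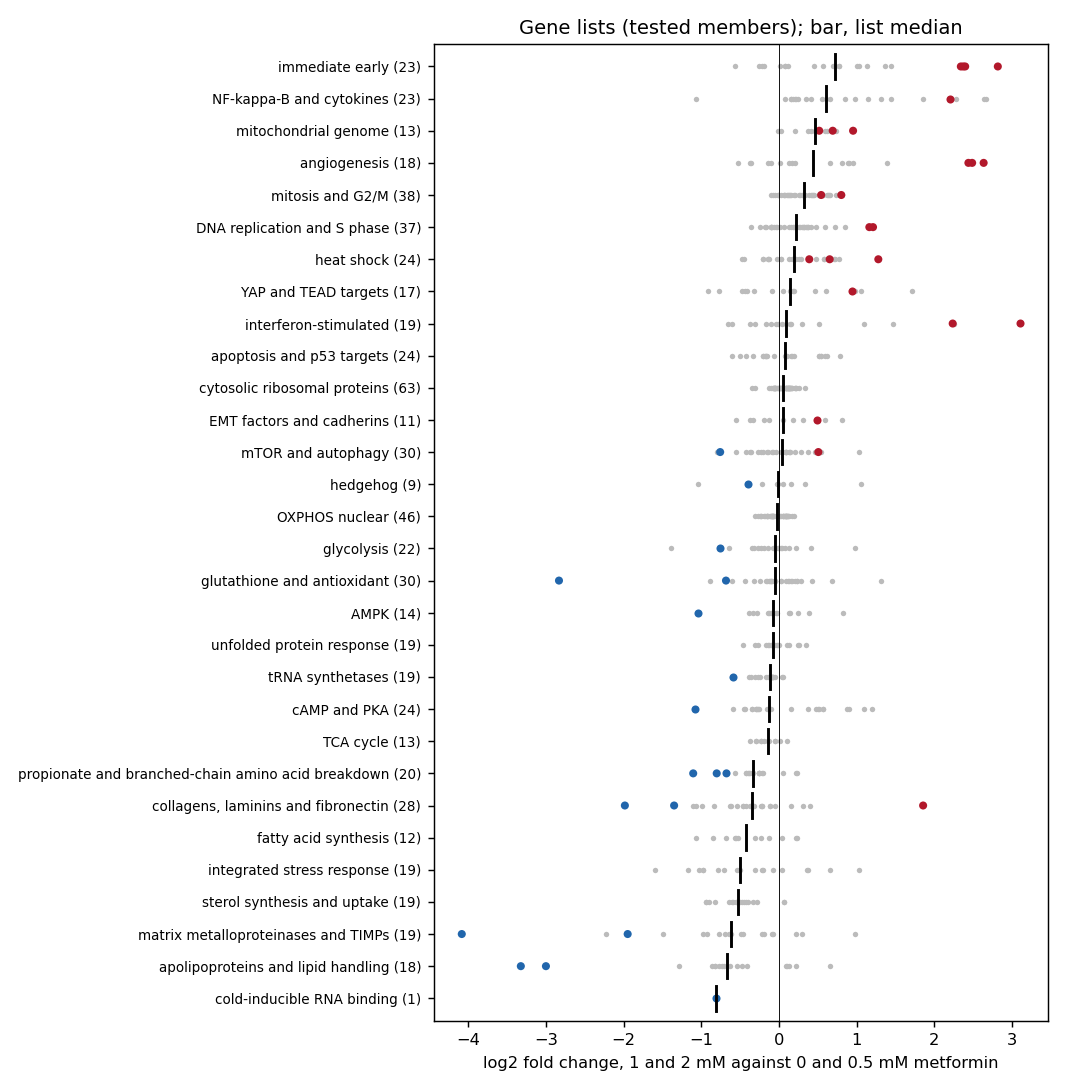
Log2 fold change of the higher against the lower doses (x axis) for the tested members of 30 gene lists, ordered by list median (black bar), with DEGs in red or blue and other members in grey. The medians run from 0.72 for early-response genes to −0.81 for the single tested cold-inducible gene, RBM3.

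The remaining lists held at most 1 DEG each, where 2.49% of all genes tested were called higher and 1.52% lower. These were WWC1, a Hippo pathway scaffold, higher among 17 YAP and TEAD target and partner genes (20.2 to 82.6 CPM, median 43.1, and 44.0 to 133 CPM, median 94.3, log2 fold change 0.94, SE 0.172, adjusted p = 0.0204), SUFU, an inhibitor of hedgehog signalling, lower among 9 hedgehog genes (log2 fold change −0.40, SE 0.0947, adjusted p = 0.0334), and FARSB, a phenylalanyl-tRNA synthetase subunit, lower among 19 tRNA synthetases (log2 fold change −0.59, SE 0.138, adjusted p = 0.0334). WWC1 shares 780 of its 4344 exonic bases with RARS, which had a log2 fold change of 0.057. Integrated stress response genes (0 of 19, median −0.50), the unfolded protein response (0 of 19, −0.079), cytosolic ribosomal proteins (0 of 63, 0.050) and apoptosis and p53 targets (0 of 24, 0.084) held no DEG in edgeR's test. Of these 7, 2, 0 and 5 had an unadjusted p under 0.05, and DESeq2 called 1, 1, 0 and 4 of them higher and 4, 1, 0 and 0 lower. In edgeR's test 22% of all genes tested had an unadjusted p under 0.05. DESeq2 called 936 genes higher and 701 lower of the 23910 in its fit. Without C7 at 1 mM, where 1.5% of genes were called higher and 0.729% lower, several lists had fewer DEGs. Angiogenesis had 2 in place of 3, heat shock 1 in place of 3, propionate and branched-chain breakdown 1 in place of 3, and S phase, interferon-stimulated and glutathione genes 1 each in place of 2. No DEG was left among apolipoproteins, glycolysis, tRNA synthetases, AMPK, cAMP, hedgehog and epithelial to mesenchymal genes, or among the collagens in the higher direction. In that fit the log2 fold changes were −3.17 for APOA1, −3.27 for APOC3, −0.79 for PFKM, −0.57 for FARSB, −1.05 for CAMKK1, −1.07 for PRKAR1B, −0.37 for SUFU, 0.49 for PRRX1 and 1.56 for COL14A1, with adjusted p-values from 0.0527 to 0.0767. IFIT5 (3.0) and CCNE2 (1.12) missed the threshold there, and IFI6 (2.04) and CDC6 (1.05) passed it. The counts of mitosis, the metalloproteinases, the lower collagens, mTOR and autophagy, NF-kappa-B, YAP and cold-inducible lists were the same as with it.

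Lower DEGs of other roles were chosen by p-value or size. FUBP3, a KH domain protein that binds single-stranded nucleic acid (ENSGALG00000003941, GRCg6a chromosome 17, 6210644 to 6246892), was at 67.0 to 84.7 CPM, median 73.6, and 37.6 to 62.5 CPM, median 48.5, without overlap (log2 fold change −0.60, SE 0.0901, adjusted p = 0.0179). C10H15ORF59, named by its place only, was at 0.696 to 3.64 CPM, median 1.23, and 0.105 to 0.678 CPM, median 0.282 (log2 fold change −2.19, SE 0.331, adjusted p = 0.0179) and C3orf18 at 16.4 to 21.7 CPM, median 19.2, and 5.53 to 16.1 CPM, median 9.75 (log2 fold change −0.96, SE 0.16, adjusted p = 0.0179), both without overlap. MGAT3, which adds the bisecting sugar to N-glycans, was at 152 to 398 CPM, median 216, and 91.1 to 168 CPM, median 112 (log2 fold change −1.07, SE 0.178, adjusted p = 0.0179). RECQL5, a DNA helicase (log2 fold change −0.94, SE 0.156, adjusted p = 0.0179), and TLDC1, a TLDc domain gene (log2 fold change −0.85, SE 0.148, adjusted p = 0.0204), were lower within each line. S1PR3, a receptor of sphingosine 1-phosphate, was at 0.172 to 4.37 CPM, median 1.51, and 0.0606 to 0.284 CPM, median 0.152 (log2 fold change −3.43, SE 0.653, adjusted p = 0.0214). PLXNA4, a semaphorin co-receptor, was at 0.0830 to 3.16 CPM, median 1.49, and 0 to 1.70 CPM, median 0.103 (log2 fold change −2.69, SE 0.54, adjusted p = 0.0237, and −3.27 without C9 at 1 mM). KCNQ3, a potassium channel subunit, was at 0.239 to 13.1 CPM, median 1.52, and 0.0511 to 0.515 CPM, median 0.306 (log2 fold change −2.56, SE 0.646, adjusted p = 0.0437, and −1.88 without C11).

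The 16 libraries did not overlap for 18 genes with all higher-dose libraries on top and for 18 with all of them below, 0.136% of genes tested each, and 17 and 13 of these were DEGs. Further examples, chosen after their values were seen, were SAMD4A, a translational repressor (173 to 405 CPM, median 281, and 424 to 869 CPM, median 560.2, log2 fold change 1.07), SDC2, the heparan sulfate proteoglycan syndecan-2 (106 to 229.6 CPM, median 173, and 246 to 513 CPM, median 268, log2 fold change 0.73), and VIL1, villin, an actin bundler of microvilli (0.519 to 2.26 CPM, median 1.67, and 3.26 to 17.7 CPM, median 5.41, log2 fold change 2.12). FABP6, a bile acid binding protein, was at 1.13 to 3.99 CPM, median 2.81, and 4.39 to 11.1 CPM, median 6.01 (log2 fold change 1.28). On the falling side UGDH, which makes the UDP-glucuronate of glycosaminoglycans, was at 336 to 729 CPM, median 439.7, and 101 to 329 CPM, median 239 (log2 fold change −1.0) and MTERF2, a mitochondrial transcription termination factor, at 1.16 to 4.04 CPM, median 1.45, and 0.201 to 0.969 CPM, median 0.714 (log2 fold change −1.59). YARS2, the mitochondrial tyrosyl-tRNA synthetase, was at 12.7 to 17.2 CPM, median 14.8, and 19.0 to 27.9 CPM, median 20.8 (log2 fold change 0.51). The 6 genes without overlap that were no DEGs were PEX14 (0.25), PPME1 (−0.28), PDHB (−0.31), AZIN1 (−0.34), APIP (−0.39) and ATG4C (−0.44), with adjusted p-values from 0.0577 to 0.139.

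Within single lines the higher DEGs had median log2 differences of 0.78 (C5), 1.14 (C7), 0.93 (C9) and 1.03 (C11), and the lower DEGs −0.83, −0.93, −0.90 and −0.90. These values describe the genes by the contrast that called them. Both higher-dose libraries lay above both lower-dose libraries in each of the 4 lines for 210 of the 329, and below for 134 of the 201. These counts too follow largely from the contrast that called the genes. The share over all genes tested was not counted, so separation within lines, also where given for single genes, is description only. Whether the difference between pools itself differed among lines was tested with 3 interaction terms. It was called for 0 of 13224 genes (edgeR, smallest adjusted p = 0.99996, 91 genes at an unadjusted p under 0.05). The 91 are fewer than chance alone would give, and the fit had 8 residual degrees of freedom. The test was thus conservative, and its 0 calls do not show that the lines responded alike.

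The doses put together in a pool were also compared with each other, in a fit of 4 dose levels and lines. Between 0 and 0.5 mM edgeR called 0 genes (778 at an unadjusted p under 0.05, smallest adjusted p = 0.662), and between 1 and 2 mM 0 genes (694, smallest adjusted p = 0.806). DESeq2 with the line as a block called 148 and 231. For the 329 higher DEGs the median step was 0.12 from 0 to 0.5 mM and 0.18 from 1 to 2 mM, and for the 201 lower DEGs −0.098 and −0.29. The medians over all genes were 0.028 and −0.0090. These steps use the same libraries as the pooled comparison. In single genes the steps from 0 to 0.5 mM and from 1 to 2 mM varied in size. RAB25 (−0.13 and 0.29) and FUBP3 (−0.05 and −0.17) had small steps inside the pools, while RBM3 (−0.42 and −0.53), MCEE (−0.35 and −1.11), TNFRSF18 (1.19 and 1.16) and ANGPT2 (0.85 and 2.01) had larger ones that did not pass the test.

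**Figure D5:**
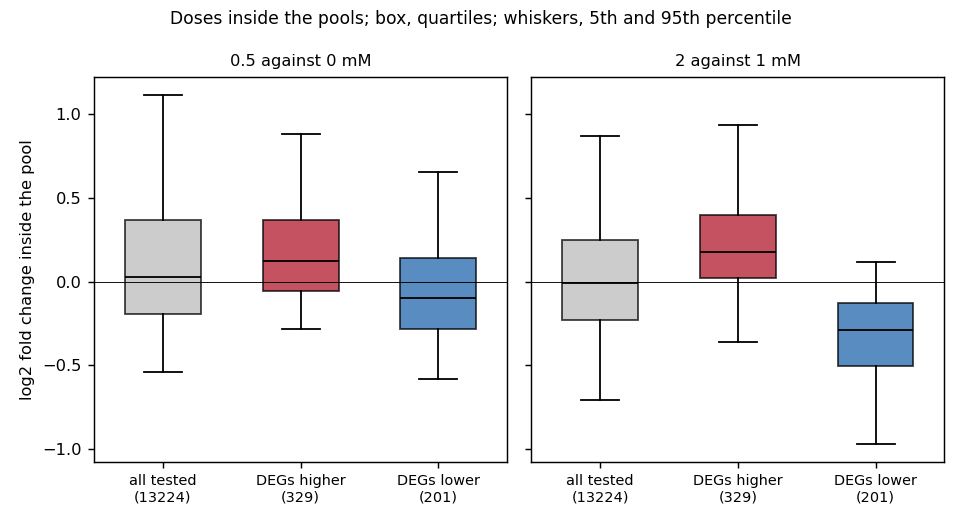
Log2 fold change of 0.5 against 0 mM (left) and of 2 against 1 mM (right) for all 13224 genes tested, the 329 higher DEGs and the 201 lower DEGs, with the median as a line, quartiles as the box and the 5th and 95th percentiles as whiskers. The boxes of the higher DEGs have medians of 0.12 and 0.18 and those of the lower DEGs −0.098 and −0.29.

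Some features of the DEGs are given as a description. Exonic length, symbol and chromosome were not used by the test, while CPM and the length slope come from the counts it used. The median exonic length was 2046 bases for the higher and 2797 for the lower DEGs, against 2376 for all genes tested, and the median CPM over the 16 libraries was 15.4, 11 and 20.0. Genes without a symbol made up 25.5% of the higher DEGs, 17.4% of the lower DEGs and 21.1% of genes tested. By chromosome 1.78% of 1011 genes on chromosome 3 and 7.19% of 306 on chromosome 12 were DEGs, a pair chosen after the values were seen. With the length slope added to the fit beside the line, 2406 genes (18.2%) were called, 1178 higher and 1228 lower, the 530 DEGs among them in the same direction. In that fit the early-response list had 10 higher members of 23, angiogenesis 8 of 18, heat shock 9 of 24 and the mitochondrial genome 8 of 13, where 8.91% of genes were called higher, and propionate and branched-chain breakdown had 8 lower of 20, where 9.29% were called lower. Within the 9 libraries of negative slope 1 gene was called and within the 7 of positive slope 0 (edgeR, 2126 and 2023 genes at an unadjusted p under 0.05). The 7 hold all 4 libraries of C9 and 1 each of C5, C7 and C11, so with the line as a block their comparison rests on C9 alone, 2 libraries against 2 of 1 hen.

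The study named its genes from 2 mM against the control in DESeq2. The pooled comparison adds 1 and 0.5 mM and uses edgeR, so its values are no repeat of the study's. Of the genes named there, SEMA6B, a semaphorin (log2 fold change −1.69, adjusted p = 0.133), GDPD2, a phosphodiesterase (−2.43, adjusted p = 0.0627, and −1.84 without C5), and RSAD2, viperin (2.25, adjusted p = 0.0692), missed the threshold in the pooled comparison. FGFR2, a fibroblast growth factor receptor that the study described as upregulated, also missed it (−0.31, adjusted p = 0.486). So did FOS (1.44) and TK1 (0.72), which the study named as upregulated too. Among others, CYYR1, UBASH3A, CHRNB3, IHH, CRABP-I, UNC45B, TMEM82, IL19, SLC5A5 and ABHD8 were removed by the count filter and have no test here. TMEM82 was at most 0.078 CPM in a lower-dose library and 0.0319 to 1.86 CPM, median 0.481, at the higher doses, IL19 at most 0.364 CPM and 0.127 to 4.43 CPM, median 0.902. ABHD8 had 0.120 to 32.4 CPM, median 0.377, at the lower doses and 0 to 0.414 CPM, median 0.0518, at the higher doses.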

How the data were processed

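Messenger RNA was sequenced. The authors aligned reads to GRCg6a with HISAT2 2.1.0 and counted them on exons with featureCounts, by strand, a read over several genes counting for each. The deposited counts per gene (whole reads, not normalized, 16 columns) were used. Deposited tables of the authors' fold changes and p-values for single doses were not used.

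Genes were kept by filterByExpr on the dose pools. Pools were compared with edgeR 4.0.16 (R 4.3.3, TMM scaling, glmQLFit and glmQLFTest, two-sided, Benjamini-Hochberg adjustment over 13224 genes), with the line as a block. Fold changes are higher against lower doses. The SE was not taken from the fit but is the absolute log2 fold change divided by the square root of the test's F statistic. CPM are counts scaled to the effective (TMM) library size, and differences within lines use log2 CPM with a prior count of 1. DESeq2 1.42.0, RLE scaling, other filters, the length slope, summed counts and omission of each line and library were alternatives.

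The pairing comes from the lines, each 1 hen. Deviations from dose means correlated with a median r of 0.568 (−0.295 to 0.842) over 24 pairs of libraries of the same line. Over 72 pairs that differed in both line and dose the median r was −0.170 (−0.683 to 0.549). The ranges overlapped, so not every pair of libraries of a line was alike. On the first principal component 1 library each of C5, C7 and C11 lay with those of C9, apart from the rest of its line. Lines are separate animals, while libraries of 1 line share an animal.

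Named genes were the 10 DEGs with the smallest p and the 8 with the largest log2 fold change in each direction (with a symbol, at least 1 CPM in a pool, same direction in 4 lines), up to 4 DEGs and the 2 most abundant other members of each list, and genes the study named. The pools, lists and rules were chosen with earlier results of these data known. Depth limits genes of a few counts, and exact 0 values of CPM mean 0 reads.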

Additional observations from a re-analysis of the deposited data

Results flagged for a closer look

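In 8 of 154 groups of 8 values tested (named DEGs and library measures in each pool), 1 library lay apart by Dixon's criterion, which divides its gap to the nearest other library by the range of the group. For genes the gaps were taken on log2 CPM (prior count 1), and the levels are given as CPM. Chance gives about 1 in 20 groups. C7 at 1 mM was highest among the higher doses for HSPA2 (7610 CPM, others 794 to 1719, gap 0.658) and for total counts (42531887, others 34724071 to 37999093, gap 0.581). C5 at 1 mM was highest for RPIA (96.4 CPM, others 24.5 to 42.8, gap 0.593), lowest for HSPA8 (1384 CPM, others 2715 to 4325, gap 0.591) and lowest for FOSB (0.287 CPM, others 4.90 to 49.6, gap 0.544). Among the lower doses C7 at 0 mM was lowest for APLNR (0 CPM, others 0.178 to 0.737, gap 0.608) and ANGPT2 (0.641 CPM, others 2.49 to 6.36, gap 0.587), and C7 at 0.5 mM was highest for EFNA5 (5.82 CPM, others 3.32 to 4.26, gap 0.556).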

How the results depend on the processing

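The 72 named DEGs kept their direction under each alternative run for them, and 0 of them were called under all of these. Those named by p-value or size were chosen for the same direction in 4 lines, and the alternatives reuse the same counts. The kept direction is therefore largely fixed by that choice and is no independent support. The counts were 329 higher and 201 lower DEGs. Without the replicate block of line they were 32 and 13. DESeq2 with the block gave 936 and 701, the length slope with the block 1178 and 1228, and counts summed per line and pool 145 and 101. Requiring a log2 fold change of at least 1 in size left 166 and 88. The 9 libraries of negative length slope gave 0 and 1, and the 7 of positive slope 0 and 0, both sets chosen after seeing the data and the second resting on C9 alone. RLE scaling, testing without a filter, a floor of 1 CPM on the mean and the fit of 4 doses stayed within 1.5 times of both counts. With 1 line or library left out the counts ran from 0 to 500 higher and from 0 to 402 lower. Inside the pools DESeq2, added after seeing the data, called 148 genes between 0 and 0.5 mM and 231 between 1 and 2 mM, where edgeR called 0 and 0. Only 4 animals and 1 library per line and dose set the limits of these values. The cause of the differences between settings was not tested.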
